A study of Homo sapiens with 8 samples.

Results

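Protocadherins are the largest family of cadherin-type cell surface proteins. Among 14884 annotated genes, 34 whose symbol begins with PCDH were measured in a skin cancer cell line carrying hairpins against Polycomb genes or GFP. Members were chosen by symbol, with earlier results of these data known. Each was represented by 1 probe set, the one with the highest mean over the 8 arrays, from 36 probe sets that carry such a symbol. They comprised 16 protein-coding genes and 3 pseudogenes of the PCDHB (beta) cluster, 13 protein-coding genes outside the clusters and 2 antisense RNAs, PCDH9-AS2 and PCDH9-AS3. No probe set is paired with a PCDHA (alpha) or PCDHG (gamma) symbol in the annotation used, so these clusters were not analysed here and the beta genes alone stand for the clustered protocadherins.

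All 8 arrays came from SCC13, an established line of human cutaneous squamous cell carcinoma, and every culture carried a short hairpin RNA. The control hairpin, shGFP, is directed at a jellyfish protein that the cells do not make. The others are directed at EZH2, which methylates histone H3 as part of Polycomb repressive complex 2 (shEZH2), and at RING1B and BMI1, parts of Polycomb repressive complex 1, which ubiquitinates histone H2A (shRING1B and shBMI1), with 2 arrays for each hairpin. The sources used here name neither the vector nor the time after its delivery, nor do they say whether cells were pools or clones. Titles of shEZH2 arrays carry another prefix (SCCL3) than the rest (SCC13), so a batch or line that goes with it cannot be told apart from the hairpin. The series title asks about inflammatory genes, and protocadherins are not its stated subject.

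Cadherins hold cells together through repeated calcium-binding domains outside the cell. The alpha, beta and gamma protocadherins lie in tandem clusters on chromosome 5, and neurons switch on a few of them each by choosing among many promoters, which CTCF and cohesin bring to shared enhancers. Alpha and gamma variable exons are spliced to common exons, whereas each beta gene is a single exon. Non-clustered protocadherins are scattered over several chromosomes and are used in brain, epithelium, endothelium and the inner ear. Polycomb complexes bind CpG-rich promoters of many developmental genes and keep them silent.

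Values are log2 signals after RMA, the authors' normalization, and a difference of 1 is a 2-fold change. The median probe set lay at 5.49 to 5.52 on the 8 arrays. EZH2 itself was at 9.83 and 9.97 with shGFP and at 8.95 and 9.03 with shEZH2, a log2 difference of -0.91 ± 0.12 (SE, adjusted p = 0.0183). BMI1 and RNF2, the gene of RING1B, are paired with no probe set in the annotation used, so these knockdowns were not checked. Of 10 keratinocyte markers, 4 were measured (KRT5, KRT14, SFN and DSG3), and each lay above the 84th percentile of all genes. The summed log2 level of those 4 was 41.4 to 41.9 with shGFP, 41.0 to 41.3 with shEZH2, 39.9 to 40.5 with shRING1B and 40.4 to 41.1 with shBMI1. With shEZH2 the sum covers opposite moves, at -0.57 for KRT14, -0.27 for KRT5, -0.12 for SFN and 0.43 for DSG3. With shRING1B and shBMI1 all 4 were lower than with shGFP, KRT14 at -0.50 and -0.29. None of the 4 passed an adjusted p under 0.05 in any knockdown. Whether 2 arrays of a hairpin stand for 2 cultures is not said in the labels, and the p-values then cover no more than array-to-array spread, possibly technical. The smallest two-sided p of an exact permutation test at this size is 0.333. Tests were therefore limma's, fitted over all genes, with Benjamini-Hochberg adjustment within each comparison.

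Of the 34 protocadherins, PCDH7 changed with a knockdown, and it fell with shEZH2. It was the 1 member past an adjusted p under 0.05 in that comparison, where 0.732% of all genes were called and 0.175% were called lower. With shRING1B and with shBMI1, 0 members and 0% of all genes were called by limma. At an unadjusted p under 0.05 there were 6 members with shEZH2 (17.6%, against 16.2% of all genes), 1 with shRING1B (2.94%, against 8.6%) and 4 with shBMI1 (11.8%, against 5.58%). Both knockdown arrays lay above both shGFP arrays for 9 members with shEZH2 (26.5%, against 23.1% of all genes) and below both for 7 (20.6%, against 27%). The same counts were 6 and 5 with shRING1B (17.6% and 14.7%, against 18.2% and 19.1%) and 5 and 4 with shBMI1 (14.7% and 11.8%, against 14% and 17.8%). With shEZH2 these shares of the family lay near those of all genes.

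**Figure D1:**
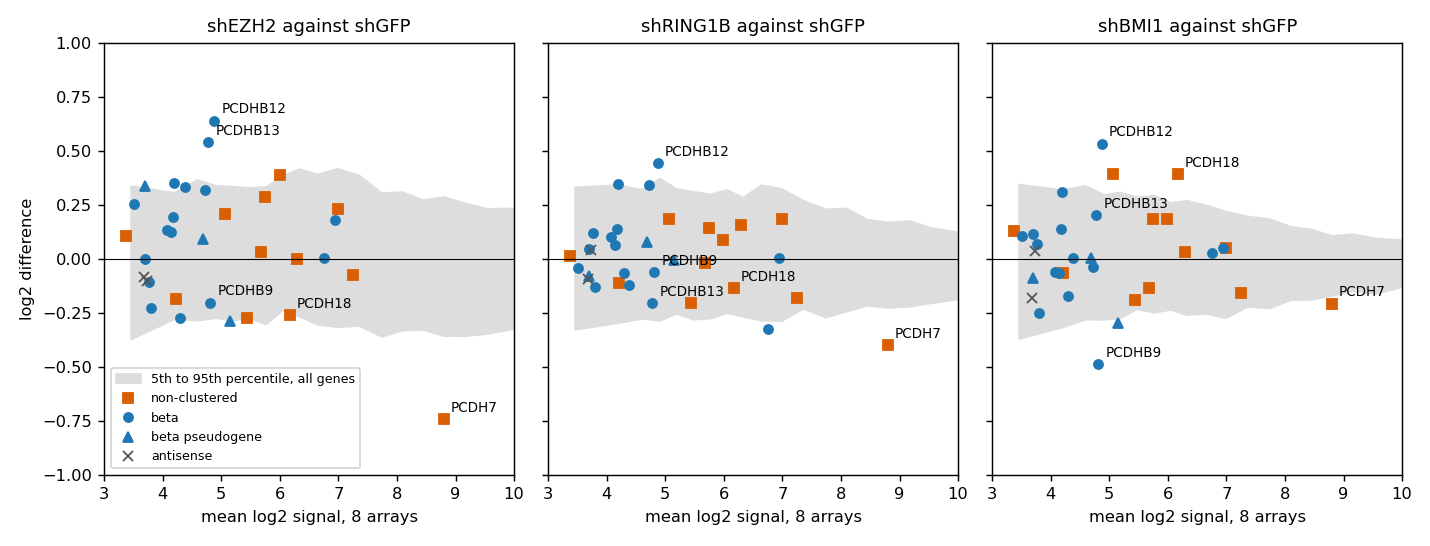
Log2 difference from shGFP (vertical axis) against the mean log2 signal over 8 arrays (horizontal axis) for 33 protocadherin genes in each of the 3 knockdowns, with the 5th to 95th percentile of all genes of like signal in grey. PCDH7 lies below the grey band in all 3 panels, at -0.74, -0.40 and -0.21, and most beta genes sit at low signal.

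PCDH7 encodes a non-clustered protocadherin whose cytoplasmic tail binds the phosphatase regulator SET and protein phosphatase 1. Its log2 signal was 9.15 and 9.13 on the shGFP arrays, 9.01 and 8.85 with shBMI1, 8.72 and 8.76 with shRING1B, and 8.44 and 8.35 with shEZH2. The arrays of no 2 hairpins overlapped, and the order ran from shGFP at the top through shBMI1 and shRING1B to shEZH2. The group means were 9.14 ± 0.02, 8.93 ± 0.11, 8.74 ± 0.02 and 8.40 ± 0.07 (SD, n = 2) in the same order.

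With shEZH2 the level of PCDH7 was 1.67-fold lower than with shGFP, a log2 difference of -0.74 ± 0.09 (SE; 95% interval -0.95 to -0.53; adjusted p = 0.0153). Its decrease ranked 18th among 14884 genes. The differences with shRING1B, -0.40 ± 0.09 (95% interval -0.61 to -0.19; adjusted p = 0.318), and with shBMI1, -0.21 ± 0.09 (-0.42 to -0.00028; adjusted p = 0.89), did not pass. These 3 comparisons share the shGFP arrays. Among the knockdowns, PCDH7 was lower with shEZH2 than with shBMI1 by 0.53 ± 0.09 (SE, adjusted p = 0.0424), a comparison in which 2 members, both lower, and 0.974% of all genes were called (0.282% lower). Between shRING1B and shEZH2 the difference was 0.34 ± 0.09 (adjusted p = 0.144), where 0 members and 0.578% of all genes were called. Between shRING1B and shBMI1 it was -0.19 ± 0.09 (adjusted p = 0.582), where 0 members and 0.0134% of all genes were called. Neighbours in the order of the 4 hairpins therefore did not differ past the threshold, whereas shEZH2 differed from both shGFP and shBMI1.

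The call for PCDH7 with shEZH2 was lost with any 1 of the 4 compared arrays left out, where the difference stayed between -0.79 and -0.69 and the adjusted p was 0.0949 to 0.152. It was also lost with only the 4 arrays compared (adjusted p = 0.055) and when all 53617 probe sets were tested (0.114, an alternative chosen after seeing the data).

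Some markers of other cell types moved on the shEZH2 arrays as well, and their part in the result for PCDH7 was not tested. Of 6 measured neuronal markers MAP2 rose, from 6.33 to 6.99 (adjusted p = 0.0435), and the summed log2 level of the 6 was 34.2 to 34.3 with shEZH2 against 32.6 to 33.1 with shGFP. Of 2 measured fibroblast markers DCN rose, from 7.01 to 7.94 (adjusted p = 0.0109), and their sum was 12.8 to 13.2 against 10.9 to 11.4. Of 5 melanocyte markers MLANA rose, from 4.18 to 4.83 (adjusted p = 0.046), with sums of 28.1 to 28.3 against 27.4 to 27.6. The melanocyte set did not move together. Log2 differences with shEZH2 were 0.64 for MLANA, 0.20 for SOX10, 0.0024 for MITF, -0.0084 for TYR and -0.15 for PMEL. The 3 leukocyte markers summed to 18.7 to 18.8 against 17.8 to 18.4 and the 4 endothelial markers to 23.7 to 24.0 against 23.7 to 23.8, with 0 past the threshold. Of these 20 genes, 9 lay under the 30th percentile of all genes in mean signal. Neuronal sums lay above shGFP in the other knockdowns too, at 33.5 to 33.8 with shRING1B and 33.4 to 33.5 with shBMI1. So did fibroblast sums, at 11.7 to 11.9 and 11.7 to 12.1, and endothelial sums, at 24.1 to 24.4 and 24.0 to 24.9. Melanocyte and leukocyte sums overlapped with shGFP in both.

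PCDH18, a non-clustered protocadherin that binds the adaptor protein DAB1, differed between knockdowns. Its log2 signal was 6.19 and 6.14 with shGFP, 6.60 and 6.52 with shBMI1, 5.92 and 6.14 with shRING1B, and 6.03 and 5.78 with shEZH2. The shBMI1 arrays were the highest and did not overlap with any other group, and the shRING1B and shEZH2 arrays overlapped with each other. PCDH18 was 1.57-fold lower with shEZH2 than with shBMI1, a log2 difference of -0.65 ± 0.12 (SE, adjusted p = 0.049). Against shGFP it was at 0.39 ± 0.12 with shBMI1 (adjusted p = 0.721), -0.26 ± 0.12 with shEZH2 (0.317) and -0.14 ± 0.12 with shRING1B (0.822), and none of the 3 passed. Between shRING1B and shBMI1 the difference was -0.53 ± 0.12 (adjusted p = 0.245). Both calls between shEZH2 and shBMI1, that of PCDH18 and that of PCDH7, were lost with only those 4 arrays fitted (adjusted p = 0.103 and 0.116), over all probe sets (0.227 and 0.225) and whenever any 1 of the 8 arrays was left out.

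**Figure D2:**
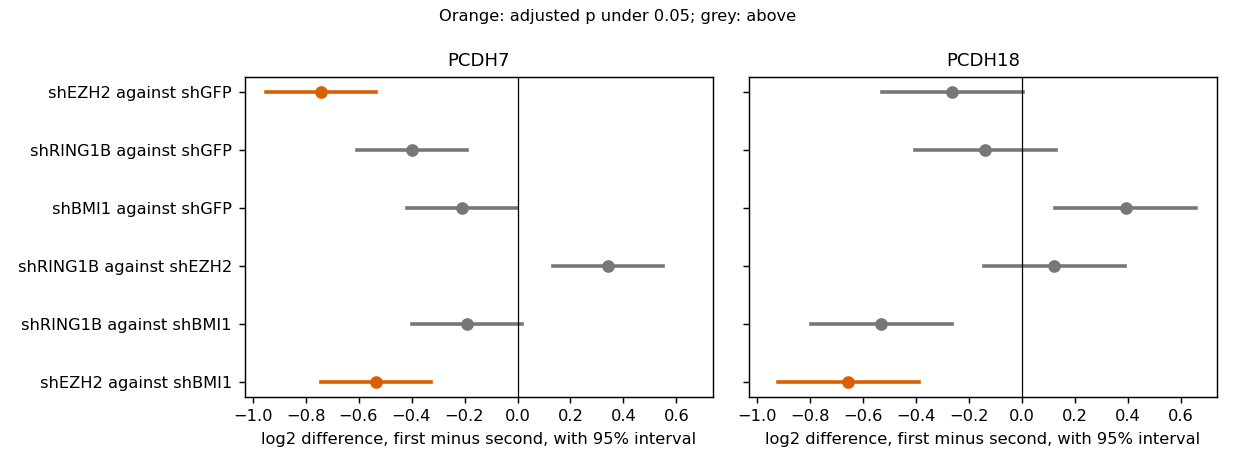
Log2 difference (point) and 95% interval (bar) of PCDH7 and PCDH18 in each of the 6 comparisons of hairpins, orange where the adjusted p is under 0.05 and grey otherwise. PCDH7 passes for shEZH2 against shGFP (-0.74) and against shBMI1 (-0.53), and PCDH18 for shEZH2 against shBMI1 (-0.65).

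The 250 bases before the RefSeq start of the called genes are shown because Polycomb complexes bind CpG-rich promoters. CpG dinucleotides are in capitals, sequences run 5′ to 3′ on the gene's strand, and coordinates are those of GRCh38.p14. PCDH7 is shown at chr4:30720119-30720368 on the plus strand and PCDH18 at chr4:137532495-137532744 on the minus strand.
PCDH7: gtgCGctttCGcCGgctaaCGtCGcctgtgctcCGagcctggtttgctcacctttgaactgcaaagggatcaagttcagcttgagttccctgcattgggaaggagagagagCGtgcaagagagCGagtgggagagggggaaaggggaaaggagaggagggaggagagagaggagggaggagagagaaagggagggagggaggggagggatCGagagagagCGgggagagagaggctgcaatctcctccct
PCDH18: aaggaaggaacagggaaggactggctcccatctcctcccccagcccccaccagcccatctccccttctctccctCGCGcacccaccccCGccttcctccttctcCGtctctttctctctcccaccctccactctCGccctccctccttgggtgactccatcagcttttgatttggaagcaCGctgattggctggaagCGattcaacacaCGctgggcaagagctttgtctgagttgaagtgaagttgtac
The PCDH7 window holds 10 CpGs and 59.6% G or C, and the PCDH18 window holds 8 CpGs and 58.4%. Among all 27305 genes with a promoter in the RefSeq table the median was 11 CpGs. Neither called gene had more CpGs than this median in the 250 bases counted, and bases after the start were left out. Whether Polycomb proteins bind there was not tested. Over the 11 non-clustered members with a promoter in the table the median was 10, from 5 for PCDH12 to 21 for PCDH19.

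The other non-clustered protocadherins gave no call against shGFP. PCDH20 was at 5.87 and 5.78 with shGFP, 6.23 and 6.20 with shEZH2, 5.88 and 6.14 with shBMI1, and 5.75 and 6.08 with shRING1B. Both shEZH2 arrays were above every other array, with a log2 difference from shGFP of 0.39 ± 0.13 (adjusted p = 0.213). PCDH1, an epithelial adhesion protein and a receptor of New World hantaviruses, was at 7.0 and 6.76 with shGFP, 7.07 and 7.14 with shEZH2, 7.12 and 7.0 with shRING1B, and 6.97 and 6.88 with shBMI1. The shEZH2 and shRING1B arrays lay above both shGFP arrays, at differences of 0.23 ± 0.11 and 0.18 ± 0.11 (adjusted p = 0.332 and 0.694), and the shBMI1 arrays overlapped with shGFP.

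PCDH10, a gene often silenced by DNA methylation in carcinomas, was at 5.44 and 5.74 with shGFP, 5.78 and 5.97 with shEZH2, 5.81 and 5.66 with shRING1B, and 5.59 and 5.96 with shBMI1. The shEZH2 arrays alone cleared both shGFP arrays, at 0.28 ± 0.15 (adjusted p = 0.408). PCDH19, mutated in an epilepsy of girls, was at 4.75 and 4.98 with shGFP, 5.22 and 5.29 with shBMI1, 5.00 and 5.08 with shRING1B, and 5.08 and 5.06 with shEZH2. All 6 knockdown arrays lay above both control arrays, at 0.39 ± 0.10 with shBMI1 (adjusted p = 0.664), 0.18 ± 0.10 with shRING1B (0.68) and 0.21 ± 0.10 with shEZH2 (0.355). PCDH8, a protocadherin that controls uptake of N-cadherin at synapses, was at 5.78 and 5.65 with shGFP, 5.63 and 5.53 with shBMI1, 5.66 and 5.72 with shRING1B, and 5.69 and 5.79 with shEZH2. Its largest difference was -0.13 ± 0.09 with shBMI1 (adjusted p = 0.969), and its shRING1B and shEZH2 arrays overlapped with shGFP.

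PCDH12 is an adhesion protein of endothelium and placenta, and PCDH15 forms the tip links of hair cells in the inner ear. PCDH12 was at -0.28 ± 0.15 with shEZH2, -0.21 ± 0.15 with shRING1B and -0.19 ± 0.15 with shBMI1 on the log2 scale. PCDH15 was at -0.19 ± 0.11, -0.11 ± 0.11 and -0.07 ± 0.11 in the same order, and adjusted p-values of both genes lay between 0.42 and 0.999. The X-linked PCDH11X, among the dimmest members, spanned 2.99 to 3.83 within shEZH2 alone and gave differences of 0.11, 0.01 and 0.13, each ± 0.24. The Y-linked copy PCDH11Y is counted with the members and was called in 0 comparisons.

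PCDH9 and PCDH17, which are chiefly known from the nervous system, each had 2 probe sets. With the brighter probe set, used throughout, PCDH9 was at -0.08 ± 0.17 with shEZH2, -0.18 ± 0.17 with shRING1B and -0.16 ± 0.17 with shBMI1. With the dimmer one, which lay between 2.72 and 3.10 on all arrays, the differences were 0.28, 0.01 and 0.12, so its sign turned in all 3 comparisons. PCDH17 was at -0.0031 ± 0.14 with shEZH2, 0.15 ± 0.14 with shRING1B and 0.03 ± 0.14 with shBMI1, and its other probe set gave 0.25 with shEZH2 (adjusted p = 0.357), a turn of sign. Neither gene passed with either probe set. Which strand or transcript each probe set reads was not checked, so the 2 sets of a gene may not measure the same RNA. PCDH9-AS2 lay between 3.53 and 3.95 and PCDH9-AS3 between 3.54 and 4.0 on all arrays, and neither had arrays apart from shGFP in any knockdown.

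**Figure D3:**
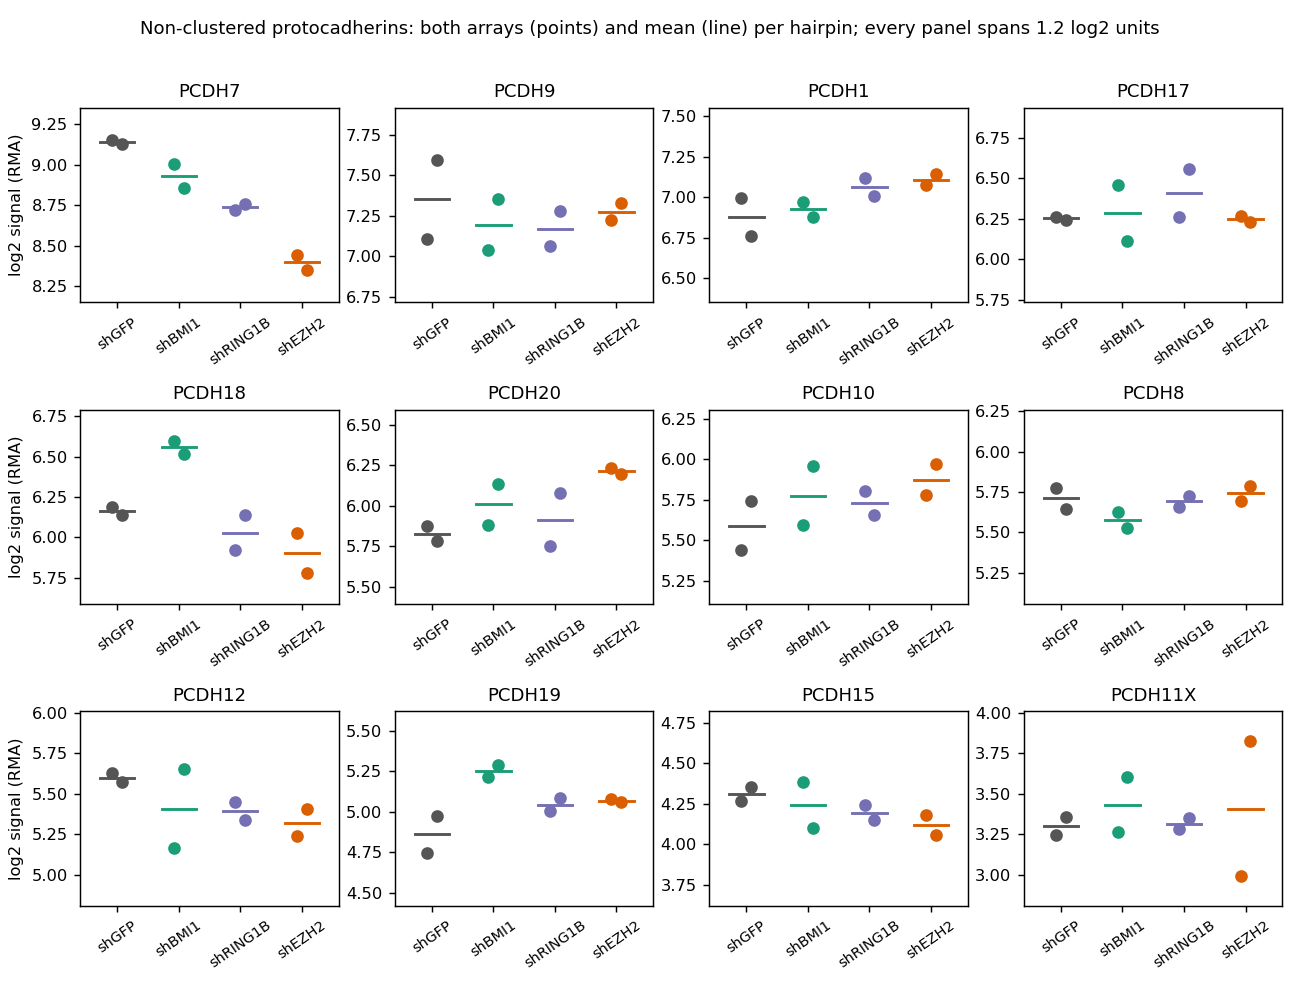
Log2 signal on each array (points) and group mean (line) of 12 non-clustered protocadherins for shGFP, shBMI1, shRING1B and shEZH2; each panel spans 1.2 log2 units around its own centre. PCDH7 steps down from 9.14 with shGFP to 8.40 with shEZH2 without overlap, PCDH18 is highest with shBMI1 at 6.56, and the shEZH2 arrays of the dim PCDH11X lie far apart.

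The beta cluster was dim on these arrays. Of its 16 protein-coding genes, 14 lay under the 30th percentile of all genes in mean signal (log2 5.61), as did all 3 pseudogenes, and PCDHB2 (6.32 to 6.96) and PCDHB14 (6.71 to 7.15) were the exceptions. Of the 13 non-clustered genes, 5 lay under that mark. At such signals RMA compresses differences, and the arrays do not show whether a transcript was absent. The median SD within a hairpin was 0.19 over the 16 beta genes, 0.15 over the 13 non-clustered genes and 0.11 over all genes (0.16 over genes under the 30th percentile). Beta genes also share long stretches of sequence, so probe sets may read more than 1 of them, and this was not tested.

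No beta gene passed in any of the 6 comparisons by limma. With shEZH2, 11 of 16 had positive values (68.8%, against 48.1% of all genes and 54.9% of genes under the 30th percentile). Their median was 0.16, against -0.0085 over all genes and 0.025 over genes under the 30th percentile. With shRING1B the median was 0.02, with 9 of 16 positive (56.2%, against 49.2% of all genes and 55.1% of those under the 30th percentile). With shBMI1 it was 0.04, with 10 of 16 positive (62.5%, against 46.6% and 53.0%). Over the non-clustered genes the median was -0.0031, 0.01 and 0.05 in the same order. Of these 13 genes, 6, 7 and 8 were positive (46.2%, 53.8% and 61.5%, against 48.1%, 49.2% and 46.6% of all genes). Array by array, the median beta gene stood at 0.08 and 0.15 above the shGFP mean with shEZH2, at 0.10 and -0.05 with shRING1B, and at 0.02 and 0.01 with shBMI1. The shGFP arrays themselves stood at -0.04 and 0.04, which mirror each other because each gene was centred on their mean. Both shEZH2 arrays lay above both controls, and the shRING1B arrays fell on either side. Medians per array were not computed for other genes of like signal.

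Single beta genes varied in opposite directions. PCDHB12, PCDHB13 and PCDHB9 are described because they had the largest differences, and they were chosen after their values were seen. PCDHB12 was at 4.44 and 4.50 with shGFP, 4.93 and 5.28 with shEZH2, 4.87 and 5.13 with shBMI1, and 5.33 and 4.49 with shRING1B. The shEZH2 and shBMI1 arrays were above the controls, at 0.64 ± 0.25 and 0.53 ± 0.25 (adjusted p = 0.263 and 0.903), and the 2 shRING1B arrays lay far apart. Its neighbour PCDHB13 was at 4.79 and 4.50 with shGFP, 5.02 and 5.35 with shEZH2, 5.03 and 4.67 with shBMI1, and 4.30 and 4.58 with shRING1B. Only the shEZH2 arrays cleared the controls, at 0.54 ± 0.17 (adjusted p = 0.194), and the difference between shRING1B and shEZH2 was -0.74 ± 0.17 (adjusted p = 0.112). PCDHB9 was at 4.95 and 5.06 with shGFP, 4.58 and 4.45 with shBMI1, 4.88 and 5.00 with shRING1B, and 4.84 and 4.76 with shEZH2. Its shBMI1 arrays were the lowest, at -0.49 ± 0.10 (adjusted p = 0.47), and its shEZH2 arrays were also below the controls, at -0.20 ± 0.10 (adjusted p = 0.343).

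PCDHB2, one of the brighter beta genes, was at 6.72 and 6.92 with shGFP, 6.32 and 6.67 with shRING1B, 6.74 and 6.91 with shEZH2, and 6.72 and 6.96 with shBMI1. The shRING1B arrays were below the others, at -0.32 ± 0.15 (adjusted p = 0.594), and the remaining groups overlapped. PCDHB14, the brightest, was at 7.0 and 6.76 with shGFP, 6.97 and 7.15 with shEZH2, 7.05 and 6.71 with shRING1B, and 7.15 and 6.72 with shBMI1. Every group of PCDHB14 overlapped with the controls, and its differences were 0.18, 0.0028 and 0.05, each ± 0.17.

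PCDHB3, PCDHB10 and PCDHB16, also chosen after their values were seen, stood apart from shGFP with shEZH2. PCDHB3 was at 4.17 and 4.48 with shGFP and at 4.65 and 4.66 with shEZH2, 0.33 ± 0.12 higher (adjusted p = 0.252), while its other arrays (4.13 to 4.41) overlapped with the controls. PCDHB10 was at 4.47 and 4.65 with shGFP, 4.72 and 5.02 with shEZH2 and 4.70 and 5.10 with shRING1B, at differences of 0.32 ± 0.15 and 0.34 ± 0.15 (adjusted p = 0.357 and 0.597). PCDHB16 was at 4.32 and 4.51 with shGFP and at 4.11 and 4.17 with shEZH2, a difference of -0.28 ± 0.12 (adjusted p = 0.298). Of the 16 beta genes, 5 had both shEZH2 arrays above both shGFP arrays (31.2%, against 23.1% of all genes and 21.7% of genes under the 30th percentile) and 3 had both below (18.8%, against 27% and 16.1%). The other beta genes ranged from -0.23 (PCDHB15) to 0.35 (PCDHB1) with shEZH2, and the 3 pseudogenes from -0.29 to 0.34.

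**Figure D4:**
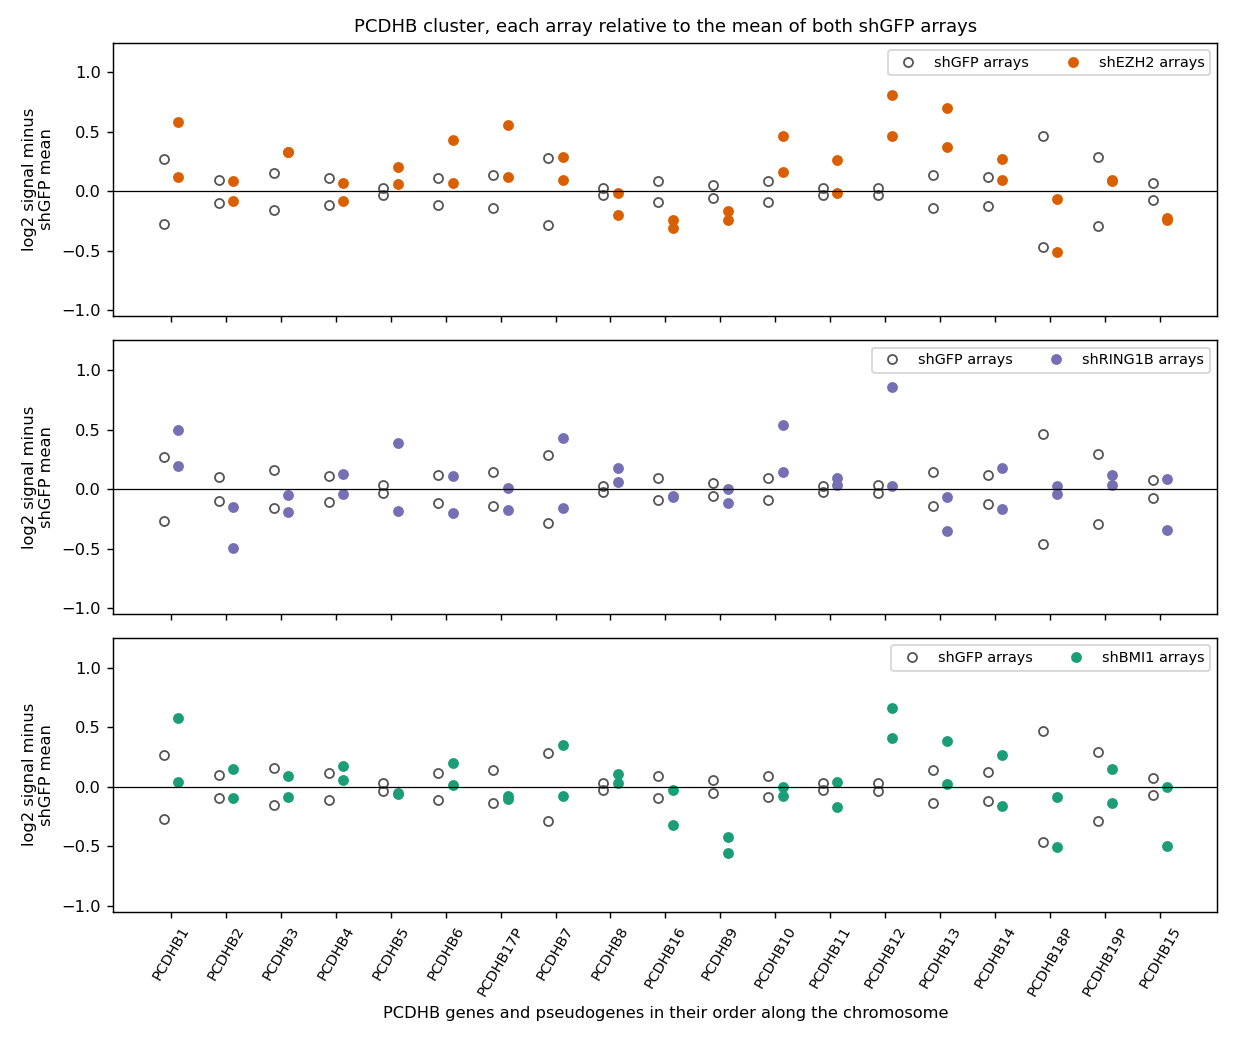
Log2 signal of each array minus the shGFP mean (vertical axis) for the 16 beta genes and 3 pseudogenes in chromosome order, with shGFP arrays as open circles and the arrays of 1 knockdown per panel as filled circles. PCDHB12 and PCDHB13 stand highest with shEZH2 (means 0.64 and 0.54), PCDHB9 lowest with shBMI1 (-0.49), and the shGFP arrays lie farthest from each other for the pseudogene PCDHB18P.

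The beta promoters share a short sequence that the non-clustered promoters lack, shown here because it sets the beta genes apart. The 9 letters GGTGGCGCT, which end in the core of the element conserved at clustered protocadherin promoters, were found on either strand in 13 of the 14 beta genes with a promoter in the RefSeq table, between 250 bases before and 50 after the start. They were found in 0 of 11 non-clustered members, in 0 of 13 alpha and 0 of 20 gamma promoters of that table, and in 0.524% of all 27305 genes. The first base lay 2 to 84 bases before the start, with a median of 66, and the beta gene without a match was PCDHB1. The letters were picked after the promoters had been compared, and a match is a description, not a binding site. Stretches of 30 bases with these letters in capitals are given for the beta genes described above, all on the plus strand of GRCh38.p14, at chr5:141094542-141094571, chr5:141187072-141187101, chr5:141208641-141208670 and chr5:141213863-141213892 in turn.
PCDHB2: ggaagagacgcggGGTGGCGCTgcagcctt
PCDHB9: ttggaagccacaaGGTGGCGCTgcagactg
PCDHB12: tgtggagacgcgtGGTGGCGCTgcaggata
PCDHB13: tgtgaggacgcgtGGTGGCGCTgcaggata
PCDHB12 and PCDHB13 had their largest differences with shEZH2, above shGFP. PCDHB9 had its largest with shBMI1 and PCDHB2 with shRING1B, both below shGFP. None of these differences passed, and the genes were named for the size of their differences. Any link between the letters and the differences was not tested. The median beta window held 6 CpGs, fewer than the 10 of the non-clustered windows.

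Genes of the machinery around protocadherins gave no calls. Of 24 listed factors that organise or silence the clusters (CTCF, cohesin, DNA methyltransferases, SMCHD1 and others) 19 were measured, and 0 rose or fell in any knockdown. At an unadjusted p under 0.05 there were 2 with shEZH2 (10.5%, against 16.2% of all genes), 0 with shRING1B (against 8.6%) and 0 with shBMI1 (against 5.58%). Their median difference was -0.07 with shEZH2, -0.03 with shRING1B and -0.0012 with shBMI1. In the same order 5, 6 and 9 of 19 were positive (26.3%, 31.6% and 47.4%, against 48.1%, 49.2% and 46.6% of all genes). Among genes at or above the 30th percentile in signal the shares were 45.2%, 46.7% and 43.8%. The maintenance methyltransferase DNMT1 had the largest difference with shEZH2, -0.39 ± 0.08 (adjusted p = 0.0892), followed by CDCA7 at -0.31 ± 0.17 and ZNF143 at -0.26 ± 0.08. With shBMI1 the largest was that of DNMT3B, -0.22 ± 0.11. CTCF, named outside the rule, was at -0.05 ± 0.09, -0.03 ± 0.09 and 0.01 ± 0.09 with shEZH2, shRING1B and shBMI1.

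Of 26 listed signalling partners 16 were measured, and 0 passed. At an unadjusted p under 0.05 there were 1 with shEZH2 and 1 with shBMI1 (6.25% each, against 16.2% and 5.58% of all genes) and 0 with shRING1B (against 8.6%). The kinase TAOK2 was at -0.29 ± 0.09 with shEZH2 (adjusted p = 0.2). SET, the partner of PCDH7, was at -0.18 ± 0.09 with shEZH2, -0.13 ± 0.09 with shRING1B and -0.06 ± 0.09 with shBMI1. With shRING1B the largest difference was that of FZD7, at 0.19 ± 0.16, followed by PTK2 at -0.17 ± 0.10. PSEN2, a catalytic subunit of the gamma-secretase that cleaves protocadherins, was at -0.29 ± 0.11 with shBMI1. Values were above 0 for 2 of the 16 partners with shRING1B (12.5%, against 49.2% of all genes and 46.7% of those at or above the 30th percentile; median -0.08) and for 3 with shBMI1 (18.8%, against 46.6% and 43.8%; median -0.04). With shEZH2 values were above 0 for 6 of the 16 (37.5%, against 48.1% and 45.2%, median -0.03). These comparisons share the shGFP arrays.

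Of 48 other cadherin superfamily genes 23 were measured, and 0 passed against shGFP. At an unadjusted p under 0.05 there were 4 with shEZH2, 2 with shRING1B and 2 with shBMI1 (17.4%, 8.7% and 8.7%, against 16.2%, 8.6% and 5.58% of all genes). The desmosomal cadherin DSG3, which ties keratinocytes to each other, was at 9.76 and 10.09 with shGFP, 10.33 and 10.37 with shEZH2, 9.22 and 9.46 with shRING1B, and 9.41 and 9.46 with shBMI1. Its arrays were above the controls with shEZH2, at 0.43 ± 0.13 (adjusted p = 0.176), and below them with shRING1B, at -0.58 ± 0.13 (0.31), and shBMI1, at -0.48 ± 0.13 (0.664). The direction in the shEZH2 arrays was thus the opposite of that of PCDH7. The desmosomal DSC2 was at 0.25 ± 0.12 with shEZH2 and -0.30 ± 0.12 with shBMI1. DSC3, also desmosomal, was at 0.44 ± 0.22 with shBMI1 (adjusted p = 0.909), opposite in sign to DSG3 and DSC2 there, and at -0.03 ± 0.22 and -0.11 ± 0.22 with shEZH2 and shRING1B. DCHS1, a ligand of the giant cadherin FAT4, was at 0.26 ± 0.10 with shRING1B, and FAT4 was at -0.25 ± 0.19 with shEZH2. The calsyntenin CLSTN3 was at 0.21 ± 0.10 with shRING1B. The median over the 23 was 0.05, 0.03 and -0.0069 with shEZH2, shRING1B and shBMI1.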

How the data were processed

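The authors deposited RMA values on a log2 scale, 1 per probe set and array (RMA and limma are in the submitters' processing notes). Their versions, the probe set definitions and the build were not stated in the sources read. The quantile step of RMA hides any shift common to most genes. Of 53617 probe sets, 16098 had 1 symbol in the platform's annotation, 0 several and 37519 none. Symbols were updated through a RefSeq table of GRCh38.p14. This left 14884 genes, 779 of them with several probe sets. With limma 3.58.1 in R 4.3.3, 1 mean per hairpin was fitted over 8 arrays (4 residual degrees of freedom), without trend or filter, and adjusted p under 0.05 was called. Errors are standard errors of this fit unless given as SD. The fit was tested on simulated data with 200 changed genes per comparison. Of planted changes of 0.5 on the log2 scale, 29.0% to 29.5% were called, and of changes of 1, 74.1% to 79.5%. A gene that was not called may therefore still have changed. Of the simulated calls, 1.83% to 6.72% were unchanged genes. Changes were planted among all genes, so recovery in the beta genes, with their larger SD, was not measured. Promoter sequences are RefSeq's (26 of 34 members matched), with the first listed start of each gene.

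Members and lists were chosen with earlier results of these data known. Named with values on every array were called members and, in each knockdown, up to 4 with the largest increase and 4 with the largest decrease, if both arrays lay beyond both shGFP arrays and the mean was above the 30th percentile. All non-clustered genes were named, and from each other list genes among the 3 largest differences of a comparison; PCDH11Y is given no level. The number of arrays limits precision. Alternatives covered normalization, probe set choice, filter, variance model, weights, replicate block, arrays fitted and genes tested.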

Additional observations from a re-analysis of the deposited data

Results flagged for a closer look

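Among the protocadherins, PCDH18 and PCDH7 differed between the shEZH2 and shBMI1 arrays by the test of that difference itself. PCDH18 was at -0.65 on the log2 scale (adjusted p = 0.049), with both shEZH2 arrays below both shBMI1 arrays. PCDH7 was at -0.53 (adjusted p = 0.0424), likewise with no overlap. With 2 arrays a group, no array could be assessed as an outlier.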

How the results depend on the processing

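Across the alternatives, direction and side of the threshold were kept in 705 of 761 values of single genes. Most of these belonged to differences uncalled in the main fit, so this share does not measure how stable the calls were. Of the other values, 35 changed sign and 21 lost a call, all 21 of them for PCDH7 or PCDH18. Of 171 counts and medians, 141 stayed near their main value. The count of protocadherins called with shEZH2 against shGFP (1, PCDH7) was 0 with only the 4 arrays compared, 0 with all probe sets (chosen after seeing the data) and 0 to 1 with 1 array left out, 0 whenever that array was one of the 4. The count for shEZH2 against shBMI1 (2) was 0 in each of those cases, and 1 with the dimmest probe set per gene, where PCDH18 had an adjusted p of 0.0504. Replicate numbers are shared between hairpins but did not pair the arrays: the differences of replicate 1 from replicate 2 correlated at 0.00066 to 0.25 between hairpins. With a replicate block, the count for shEZH2 against shBMI1 was 0 (adjusted p = 0.0508 for PCDH7 and 0.0644 for PCDH18), and that for shEZH2 against shGFP was 1 (PCDH7, adjusted p = 0.0186). With a trended robust variance, 2 protocadherins were called between shRING1B and shEZH2 (PCDH7 and PCDHB13). The cause was not tested, except that leaving out arrays or adding probe sets changes how many are fitted.

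The non-clustered median with shEZH2 was -0.062 after quantile normalization, 0.10 with a gene's probe sets averaged and 0.11 with the dimmest one, which gave 0.13 with shBMI1. Without the dimmest 30% of genes the beta median with shRING1B was -0.16, over 2 genes. With 1 array left out, the beta median ranged from 0.078 to 0.15 with shEZH2, -0.054 to 0.096 with shRING1B and -0.033 to 0.045 with shBMI1, and the non-clustered median from -0.13 to 0.052, -0.053 to 0.062 and 0.044 to 0.061.

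Single differences that changed sign were uncalled in the main fit. With shEZH2, PCDHB2 was at -0.028 after quantile normalization and -0.035 after median centring, PCDH8 at -0.019 and -0.0081, PCDH17 at 0.13 with the average and 0.25 with the dimmest probe set, and PCDH9 at 0.10 and 0.28. PCDH11X with shRING1B was at -0.021 and -0.00052 after quantile normalization and centring, and PCDH9 with the dimmest probe set was at 0.0069 with shRING1B and 0.12 with shBMI1. With 1 array left out, ranges with shEZH2 were -0.095 to 0.10 for PCDHB2, -0.035 to 0.095 for PCDH8, -0.31 to 0.52 for PCDH11X, -0.024 to 0.018 for PCDH17 and -0.32 to 0.17 for PCDH9. With shRING1B they were -0.075 to 0.25 for PCDH20, -0.010 to 0.29 for PCDH10, -0.084 to 0.045 for PCDH8, -0.041 to 0.067 for PCDH11X and -0.43 to 0.062 for PCDH9. With shBMI1 they were -0.071 to 0.17 for PCDH1, -0.097 to 0.15 for PCDHB2, -0.041 to 0.30 for PCDH11X, -0.44 to 0.057 for PCDH12, -0.21 to 0.075 for PCDH15, -0.14 to 0.21 for PCDH17 and -0.40 to 0.086 for PCDH9.

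The limits are the 2 arrays per hairpin, the low signal of most beta genes, possible cross-reading between them, and the title prefix that goes with shEZH2.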
